A study of Mus musculus with 6 samples.

Results

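Genes of the lysosome were followed in cells sorted from mouse bone marrow, on 3 arrays from mice with acute myeloid leukemia (AML) and 3 arrays from mice with chronic myeloid leukemia (CML). The list holds 34 genes for lysosomal hydrolases, their activators and targeting enzymes, lysosomal membrane proteins and the transcription factor gene Tfeb. Of these, 33 were measured among 22180 genes. The genes were listed by name, with this comparison already known. Where a gene had more than 1 probe set, the one with the highest mean over the 6 arrays was used. The remaining gene, Glb1, had no probe set assigned to it alone and was not analysed here. All 6 samples carried the genotype label Col2.3 GFP, a reporter in which a Col1a1 promoter fragment drives green fluorescent protein in cells of the bone-forming lineage, and the cells were labelled osteoblastic and came straight from sorting. The labels name no strain, age, agent that induced the leukemia, or number of mice behind a sample. The titles set the groups, whereas the source names read CML for all 6 samples, so each direction rests on the titles. Since the labels do not say whether the samples are from separate mice, the p-values speak only of the scatter among these arrays, part of which may be technical.

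Lysosomes are acidic compartments in which hydrolases take apart sugars, lipids and proteins delivered by endocytosis, phagocytosis and autophagy. Most soluble hydrolases receive a mannose phosphate tag in the Golgi, which carries them to the lysosome, and the loss of single hydrolases causes storage diseases such as the mucopolysaccharidoses and gangliosidoses. TFEB and its relatives bind an E-box with particular flanks, the CLEAR element, in promoters of many lysosomal genes. Macrophages, granulocytes and bone-resorbing osteoclasts are rich in lysosomes or related granules.

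The E-box letters were looked for in the 300 bases from 250 before to 50 after each annotated start, in RefSeq promoters of build GRCm38.p6, which matched 29 of the 34 genes. CACGTG, which reads the same on both strands, was found for 8 of these 29 genes, or 27.6%, against 8.09% of all 27025 genes in the promoter table and 9.19% of the 16990 genes measured on the arrays that had a promoter. The longer form TCACGTGA, which contains CACGTG, was found for Gnptg and Mcoln1, or 6.90%, against 1.12% of all genes, and the full CLEAR element for 0 of 29, against 0.37% of all genes. Of 56 measured lysosomal genes outside the list with a promoter, 25.0% held CACGTG, 12.5% TCACGTGA and 5.36% the full CLEAR element. CACGTG itself holds a CpG, and the median CpG count was 18 in the list, 7 for all promoters and 13 for genes measured on the arrays. The part of CpG content in these shares was not tested. The stretches below are shown because they hold all matches in the list. They run 5′ to 3′ on the gene's strand up to at most the annotated start, and the capitals mark CACGTG.
Lamp1, chr8:13159080-13159160, plus strand: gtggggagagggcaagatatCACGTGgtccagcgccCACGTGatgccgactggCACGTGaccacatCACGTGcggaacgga
Mcoln1, chr8:3500428-3500499, plus strand: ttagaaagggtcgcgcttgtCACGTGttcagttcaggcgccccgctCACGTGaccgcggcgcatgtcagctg
Naglu, chr11:101070001-101070046, plus strand: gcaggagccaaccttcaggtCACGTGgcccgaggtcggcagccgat
Sgsh, chr11:119355514-119355559, minus strand: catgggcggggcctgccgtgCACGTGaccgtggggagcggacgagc
Gaa, chr11:119267803-119267848, plus strand: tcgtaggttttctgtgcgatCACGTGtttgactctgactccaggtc
Glb1, chr9:114401010-114401055, plus strand: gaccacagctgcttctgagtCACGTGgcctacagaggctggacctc
Gnptg, chr17:25240117-25240157, minus strand: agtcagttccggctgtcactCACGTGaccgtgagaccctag
Arsa, chr15:89477425-89477460, minus strand: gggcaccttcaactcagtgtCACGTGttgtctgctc
Lamp1 held 4 copies, the first 61 and the last 15 bases before its start, and Mcoln1 held 2. A match is a description of these letters and does not show a bound site.

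Every measured lysosomal gene was higher in AML by value. Among the 33, 8 rose past a Benjamini-Hochberg adjusted p of 0.05 in limma, which is 24.2% of them, against 1.91% of all genes in either direction and 1.83% higher in AML, and 0 fell. These were Hexa, Gnptab, Scarb2, Grn, Galns, Hgsnat, Lamp2 and Aga, with fold changes between 2.58 and 9.81. The list was drawn up with this comparison known, so its count is a description, and in RNA from many cells more cells of a type and more RNA per cell cannot be told apart. By value 38.3% of all genes were higher in AML. The AML arrays lay above all CML arrays for 24 of the 33 genes, against 13.3% of all genes. At least 2-fold higher were 15 of the 33, against 1255 of all 22180 genes. The median change of the 33 genes was 0.89 on the log2 scale and that of all genes -0.11. The calls did not hold in every fit that drops 1 array. Without AML 1, AML 2 or CML 3, limma called 0 of the 33 genes and 0 of 22180. In those fits 20, 19 and 20 of the 33 had an unadjusted p under 0.05, against 3048, 3750 and 3533 of 22180. Without AML 3, CML 1 or CML 2, limma called 8, 8 and 6 of the 33, against 279, 438 and 357 of 22180. Another scaling of the arrays also moved the count, to 14 after median centring, 2 with quantile normalization and 1 with cyclic loess. Of all 22180 genes, these scalings called 896, 93 and 64. All 33 genes stayed higher by value under each, which was bound to hold for median centring, as it raised every change by the same amount.

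**Figure D1:**
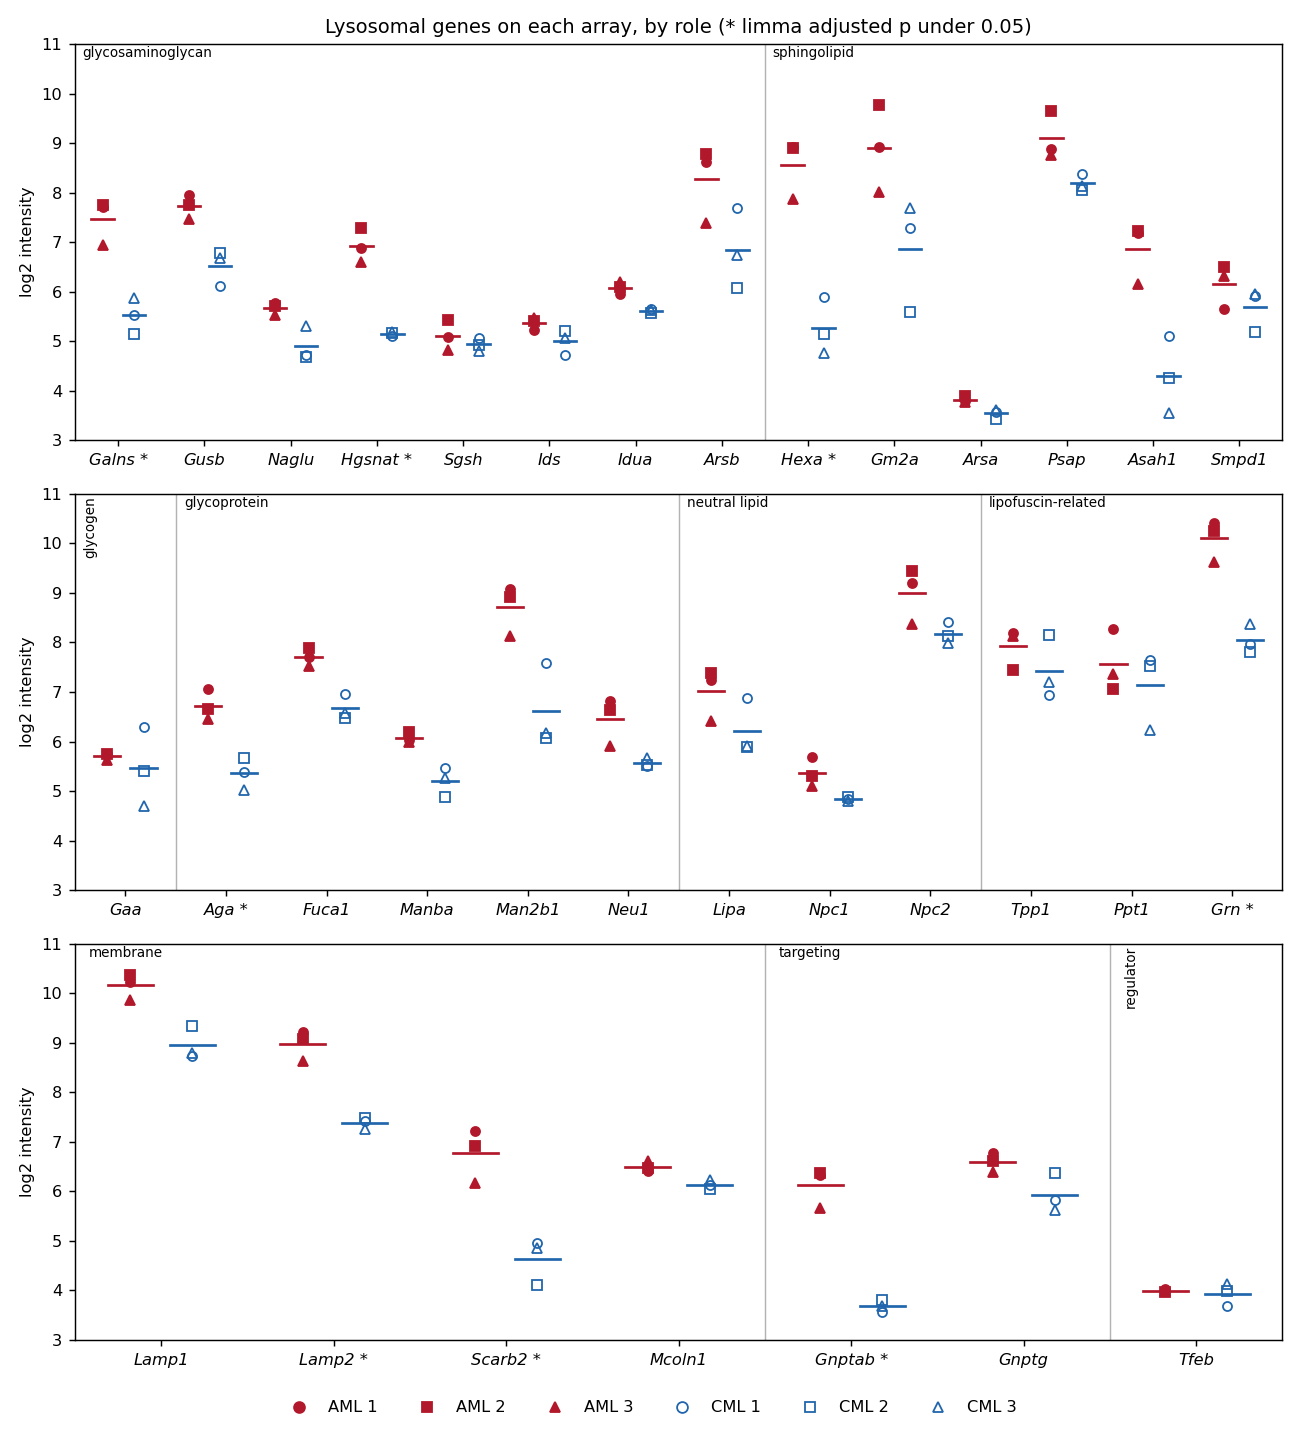
Log2 intensity of the 33 lysosomal genes on each array, grouped by role, with AML arrays as filled red and CML arrays as open blue symbols and a line at each group's mean. Levels compare between arrays within a gene and not between genes, and for 24 genes the lowest AML point lies above the highest CML point.

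Genes for the breakdown of glycosaminoglycans, the sugar chains of proteoglycans, were represented by 8 genes, of which 2 rose and 6 did not pass. Of all genes 1.83% rose. Hgsnat encodes the membrane acetyltransferase of heparan sulfate breakdown. Its log2 intensity was 6.88, 7.28 and 6.60 on the AML arrays, against 5.10, 5.16 and 5.18 on the CML arrays. The CML arrays were nearly level and the lowest AML array lay 1.41 above the highest of them, a change of 1.77 ± 0.20 (SE, n = 3 each), or 3.41-fold (limma adjusted p = 0.0221). Galns encodes a sulfatase of keratan and chondroitin sulfate. It read 7.70, 7.75 and 6.95 on the AML arrays, against 5.54, 5.15 and 5.88 on the CML arrays. The groups were 1.07 apart, with a change of 1.94 ± 0.29, or 3.85-fold (SE, limma adjusted p = 0.0348). With 1 array left out, the change ran from 1.59 to 1.93 for Hgsnat, which then passed in 3 of 6 fits, and from 1.76 to 2.20 for Galns, which passed in 1, without AML 3.

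The other 6 genes of this role had changes between 0.17 and 1.43. Gusb, the beta-glucuronidase, averaged 7.73 ± 0.24 on the AML arrays and 6.52 ± 0.36 on the CML arrays (mean ± SD of 3), without overlap and just short of the threshold (change 1.20, limma adjusted p = 0.0570). Arsb, another sulfatase of dermatan and chondroitin sulfate, averaged 8.26 ± 0.76 on the AML arrays against 6.83 ± 0.81 on the CML arrays (SD of 3), and its groups overlapped because AML 3, at 7.39, lay below CML 1, at 7.69 (limma adjusted p = 0.188). A probe set of Arsb that was not used gave 1.67, also with overlap. Other enzymes of heparan sulfate breakdown lay closer between the groups by value. Naglu, the N-acetylglucosaminidase, was at 0.77, the iduronidase gene Idua at 0.46 and the iduronate sulfatase gene Ids at 0.37, each without overlap and none past the threshold. Sgsh, the heparan N-sulfatase, differed by 0.17 with a 95% interval of -0.29 to 0.63, and its groups overlapped.

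In the breakdown of gangliosides and other sphingolipids, 1 of 6 measured genes rose, against 1.83% of all genes. Hexa encodes the alpha subunit of beta-hexosaminidase, which removes the terminal sugar of the ganglioside that builds up in Tay-Sachs disease. It had log2 intensities of 8.91, 8.89 and 7.87 on the AML arrays, against 5.89, 5.14 and 4.77 on the CML arrays. By value this was the largest change of the 33 genes: the groups were 1.98 apart and the change was 3.29 ± 0.39 (SE, n = 3 each), or 9.81-fold (limma adjusted p = 0.0248; 3.05 to 3.64 with 1 array left out, passing in 3 of 6 fits). Asah1, the acid ceramidase, stood at 7.18, 7.23 and 6.14 on the AML arrays, against 5.10, 4.26 and 3.55 on the CML arrays. Its groups did not overlap either, but the CML arrays spread widely, and the change of 2.55 ± 0.46 did not pass (SE, limma adjusted p = 0.0517). Gm2a, the activator protein that presents the ganglioside to beta-hexosaminidase, read 8.92, 9.76 and 8.02 on the AML arrays, against 7.28, 5.60 and 7.68 on the CML arrays. It was 4.13-fold higher by value with a wide 95% interval of 0.51 to 3.58 for the log2 change, and did not pass (limma adjusted p = 0.155).

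Psap, the precursor of the saposins that activate sphingolipid hydrolases, averaged 9.10 ± 0.48 on the AML arrays and 8.19 ± 0.17 on the CML arrays (mean ± SD of 3), a change of 0.91 without overlap (limma adjusted p = 0.131). Smpd1, the acid sphingomyelinase, differed by 0.46 with overlapping groups. Its other probe set, not used here, gave 1.07 without overlap and did not pass (limma adjusted p = 0.0997 over every probe set with 1 symbol). Arsa, the sulfatase of sulfatides, was dim: it lay below the median of all probe sets on all 6 arrays and differed by 0.27. Gaa, which breaks down glycogen, read 5.76, 5.75 and 5.63 on the AML arrays, against 6.30, 5.40 and 4.70 on the CML arrays. CML 1 was the highest and CML 3 the lowest of the 6 arrays, so the difference of 0.24 had a 95% interval of -0.67 to 1.15 and turned to -0.14 without CML 3.

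All 5 genes of glycoprotein breakdown lay higher on every AML array than on any CML array, as did 13.3% of all genes, and 1 rose past the threshold, against 1.83% of all genes. Aga, the amidase that splits the bond between asparagine and the sugar chain, read 7.07, 6.66 and 6.45 on the AML arrays, against 5.39, 5.66 and 5.03 on the CML arrays. The groups were 0.79 apart (change 1.37 ± 0.23, SE, n = 3 each; limma adjusted p = 0.0468), and dropping any 1 array ended the call of Aga, with an adjusted p that ran from 0.0504 to 0.171 in limma. Fuca1, the fucosidase, lay just beyond the threshold, at 7.72, 7.89 and 7.52 on the AML arrays, against 6.95, 6.47 and 6.58 on the CML arrays (change 1.04 ± 0.19; limma adjusted p = 0.0503). Man2b1, the alpha-mannosidase, read 9.09, 8.91 and 8.14 on the AML arrays, against 7.58, 6.08 and 6.17 on the CML arrays. CML 1 stood above the other CML arrays, and the difference of 2.10 ± 0.46, the widest of the 5, did not pass (SE, limma adjusted p = 0.0749). The sialidase gene Neu1 was at 0.89 and the beta-mannosidase gene Manba at 0.87, and neither passed.

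The 3 genes that handle cholesterol and neutral lipids were higher by value, and 0 passed in limma. An unadjusted p under 0.05 was found for 2 of them, against 4777 of all 22180 genes. Npc2, the soluble protein that hands cholesterol to NPC1, read 9.20, 9.44 and 8.38 on the AML arrays, against 8.41, 8.14 and 7.98 on the CML arrays, so AML 3 lay just below CML 1 (change 0.83, limma adjusted p = 0.186). Npc1, the membrane partner, read 5.68, 5.30 and 5.10 on the AML arrays, against 4.84, 4.87 and 4.80 on the CML arrays. Its groups were 0.23 apart with a small change of 0.52 (limma adjusted p = 0.178). A second probe set of Npc1, left out of the fit, had a change of 0.30. Lipa, the acid lipase that frees cholesterol from its esters, differed by 0.79, with AML 3 below CML 1.

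Among the genes whose loss leads to lipofuscin storage, Grn rose and Tpp1 and Ppt1 did not pass. Grn encodes progranulin, a secreted and lysosomal protein of myeloid and other cells that is cut into granulins. It read 10.42, 10.26 and 9.63 on the AML arrays, against 7.97, 7.80 and 8.37 on the CML arrays. The groups were 1.27 apart and the change was 2.06 ± 0.26 (SE, n = 3 each), or 4.16-fold (limma adjusted p = 0.0266; 1.90 to 2.29 with 1 array left out, passing in 3 of 6 fits). Tpp1, a tripeptidyl peptidase, read 8.19, 7.45 and 8.13 on the AML arrays, against 6.93, 8.14 and 7.19 on the CML arrays, so that CML 2 matched the higher AML arrays (change 0.50, 95% interval -0.36 to 1.36). Ppt1, which removes fatty acids from proteins, differed by 0.43 (95% interval -0.69 to 1.55) and turned to -0.02 without CML 3.

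All 4 membrane proteins were higher on each AML array than on any CML array, and 2 rose, where 13.3% of all genes lacked overlap in that direction and 1.83% rose. Lamp2, a heavily glycosylated protein of the lysosomal membrane that takes part in autophagy, read 9.21, 9.07 and 8.63 on the AML arrays, against 7.42, 7.48 and 7.25 on the CML arrays. The gap between the groups was 1.15 and the change 1.58 ± 0.19 (SE, n = 3 each), or 3.00-fold (limma adjusted p = 0.0248; 1.46 to 1.76 with 1 array left out, passing in 3 of 6 fits). Scarb2, also called LIMP-2, is a lysosomal membrane protein that also serves as a sorting receptor. Its values were 7.23, 6.92 and 6.18 on the AML arrays, against 4.95, 4.10 and 4.85 on the CML arrays. With a gap of 1.23 it changed by 2.14 ± 0.34, or 4.40-fold (SE, limma adjusted p = 0.0407), and of the fits that drop 1 array only the one without AML 3 called it. Lamp1, the paralog of Lamp2 and the gene with 4 E-boxes shown above, averaged 10.16 ± 0.26 on the AML arrays and 8.96 ± 0.33 on the CML arrays (mean ± SD of 3), and its change of 1.20 fell short (limma adjusted p = 0.0545). Mcoln1, the calcium channel mucolipin, had a narrow spread and a change of 0.36 (limma adjusted p = 0.200).

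Of the genes for the enzyme that makes the mannose phosphate tag, 1 rose and 1 did not pass, where 1.83% of all genes rose. Gnptab, which encodes the catalytic alpha and beta subunits, read 6.33, 6.37 and 5.67 on the AML arrays, against 3.57, 3.81 and 3.69 on the CML arrays. All 3 AML arrays lay above their array's median of all probe sets and all 3 CML arrays below it. The change of 2.44 ± 0.22 (SE, n = 3 each), or 5.41-fold, had the lowest p of the list (limma adjusted p = 0.0151), rank 22 of 22180 genes. It stayed past the threshold after each of the 3 other scalings and in 3 of the 6 fits that drop an array. Gnptg, the gamma subunit, read 6.78, 6.62 and 6.39 on the AML arrays, against 5.82, 6.37 and 5.62 on the CML arrays. Its groups were 0.02 apart and its change of 0.66 did not pass (limma adjusted p = 0.182). The difference between the changes of the subunits was not tested.

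Tfeb itself was dim and did not pass. It read 4.03, 3.98 and 3.98 on the AML arrays, against 3.68, 3.99 and 4.13 on the CML arrays. All 6 values lay below the array medians, the groups overlapped, and the difference of 0.06 had a 95% interval of -0.32 to 0.45 (limma adjusted p = 0.814). It turned to -0.06 without CML 1.

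**Figure D2:**
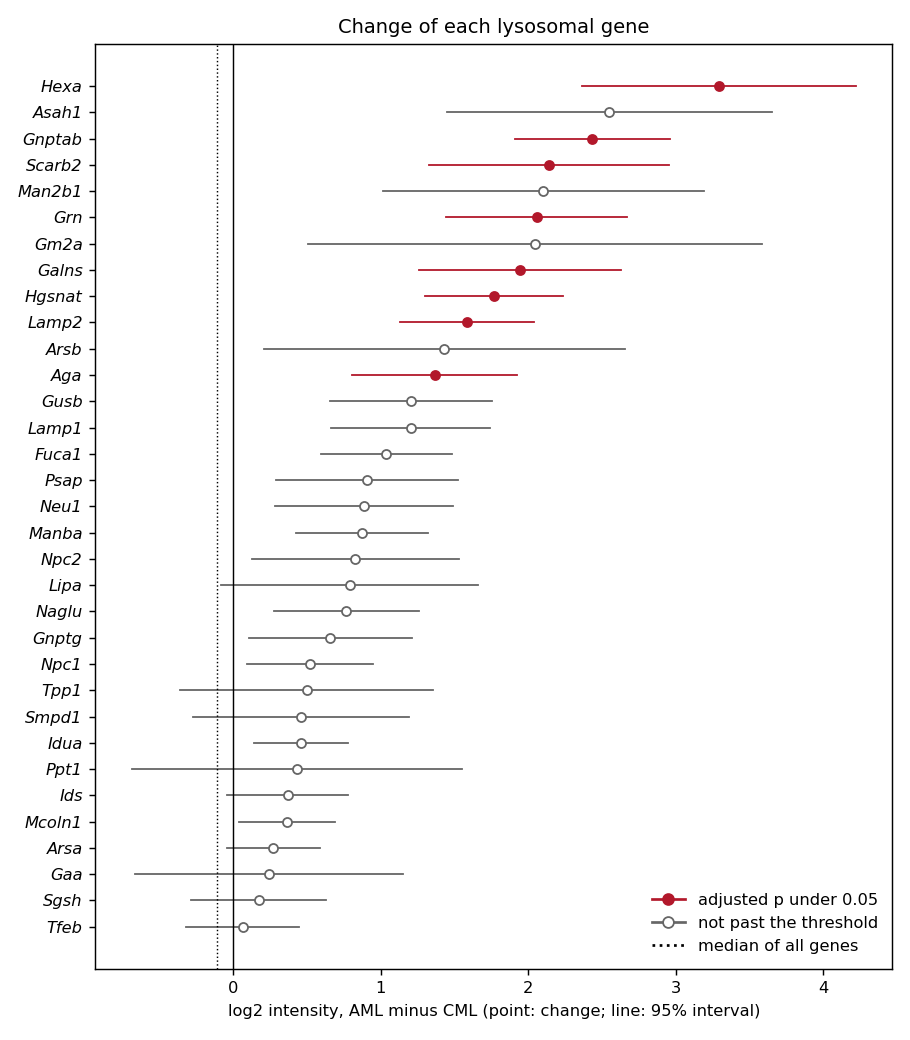
Change in log2 intensity, AML minus CML, of each of the 33 lysosomal genes, sorted by size, with its 95% interval from limma. Filled red points mark the 8 genes past an adjusted p of 0.05, open grey points the other 25, and the dotted line the median change of all genes, -0.11.

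The E-box matches were set beside the changes. Of the 8 genes that rose, 5 had a promoter in the table, and 0 of the 5 held CACGTG. Among the 23 other measured genes with a promoter 7 did, against 9.19% of all measured genes with a promoter. With 5 promoters, 0 matches cannot be told apart from that share. A link between E-boxes and changes was not tested. The measured genes with an E-box had changes of 1.20 (Lamp1), 0.77 (Naglu), 0.66 (Gnptg), 0.36 (Mcoln1), 0.27 (Arsa), 0.24 (Gaa) and 0.17 (Sgsh). The 150 bases before the starts of Hexa and Gnptab are printed below, with each CpG in capitals. Both had the largest changes among the genes past the threshold with a promoter.
Hexa, chr9:59539390-59539539, plus strand: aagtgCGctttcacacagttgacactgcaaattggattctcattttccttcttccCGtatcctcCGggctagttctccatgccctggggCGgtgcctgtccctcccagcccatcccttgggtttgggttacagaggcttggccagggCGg
Gnptab, chr10:88379118-88379267, plus strand: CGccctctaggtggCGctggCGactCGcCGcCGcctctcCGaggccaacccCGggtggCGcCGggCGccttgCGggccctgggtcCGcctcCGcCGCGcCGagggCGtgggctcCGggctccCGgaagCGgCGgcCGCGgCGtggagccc
These stretches hold 5 CpG for Hexa and 25 for Gnptab and no CACGTG. Over the 300 bases the promoters of the list had a median of 18 CpG, against 13 for all genes measured on the arrays. No match says only that these letters are absent from this window.

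Lysosomal genes outside the list were set beside it as 4 groups with 72 genes, 65 of them measured. Of the 65, 6 rose and 0 fell, which is 9.23%, against 1.91% of all genes called in either direction. By value 52 of the 65 were higher, against 38.3% of all genes, with a median change of 0.56. Among 14 other hydrolases and their helpers, 3 rose. Pla2g15, a lysosomal phospholipase, read 8.71, 8.73 and 7.71 on the AML arrays, against 5.83, 5.94 and 5.95 on the CML arrays (change 2.47 ± 0.29, SE; limma adjusted p = 0.0248). Its groups were far apart and the CML arrays nearly level. Smpdl3a, a phosphodiesterase related to acid sphingomyelinase, and Ctsa, the protective protein that forms a complex with neuraminidase and beta-galactosidase, changed by 1.86 and 1.59 (limma adjusted p = 0.0437 and 0.0489).

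Among 18 other membrane proteins and transporters, 3 rose, against 1.83% of all genes. Laptm4b, a transmembrane protein of late endosomes and lysosomes, read 6.25, 6.15 and 5.30 on the AML arrays, against 3.47, 3.68 and 3.52 on the CML arrays (change 2.34 ± 0.27, SE; limma adjusted p = 0.0232). The CML arrays again lay close together, but all 3 values were dim, below their array's median of all probe sets. Slc29a3, a lysosomal nucleoside transporter, changed by 1.50, and Cd68, a macrophage relative of the LAMP proteins, by 2.80 (limma adjusted p = 0.0433 and 0.0477). In the limma fits without AML 1, AML 2 or CML 3, 0 of the 65 genes and 0 of 22180 were called. In those fits 25, 31 and 25 of the 65 had an unadjusted p under 0.05, against 3048, 3750 and 3533 of 22180. Without AML 3, CML 1 or CML 2, limma called 6, 4 and 2 of the 65, against 279, 438 and 357 of 22180.

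In the remaining groups limma called 0 genes. Of 16 sorting genes, 15 were higher by value with a median of 0.42. In this group 7 had an unadjusted p under 0.05, against 4777 of all 22180 genes. The lowest p were those of Ap1s1, a clathrin adaptor subunit, and the receptor gene Sort1, at 0.71 ± 0.15 and 1.83 ± 0.44 (SE; limma adjusted p = 0.0739 and 0.0938). The receptor for the mannose phosphate tag M6pr was at 1.17 and Igf2r, the other such receptor, at 0.10. Of 17 regulators, 11 were higher by value with a median of 0.24. An unadjusted p under 0.05 was found for 5 of the 17, against 4777 of all 22180 genes. Among the relatives of TFEB, Tfec read 8.74, 7.59 and 6.20 on the AML arrays, against 5.31, 4.38 and 4.42 on the CML arrays, and did not pass (change 2.80 ± 0.63, SE; limma adjusted p = 0.0807). Its groups did not overlap, whereas Tfe3 and Mitf differed by -0.05 and 0.01, with 95% intervals of -0.36 to 0.26 and -0.79 to 0.81. Lamtor4, a subunit of the lysosomal Ragulator complex that docks mTORC1, was at 1.38 ± 0.34 (SE; limma adjusted p = 0.101).

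**Figure D3:**
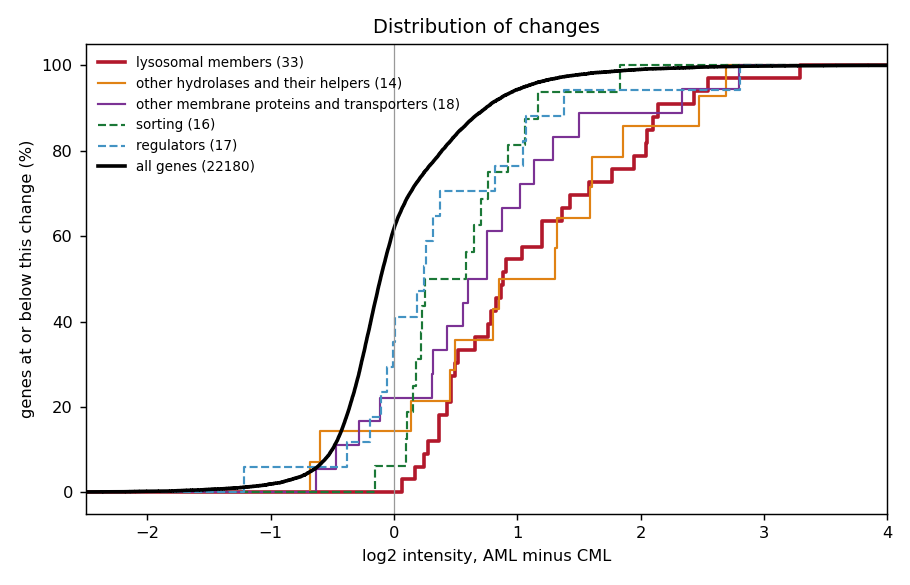
Cumulative percentage of genes by change in log2 intensity, AML minus CML, for the 33 lysosomal genes, the 4 groups of other lysosomal genes and all 22180 genes. The curve of the 33 genes starts to the right of 0, where 61.7% of all genes already lie to the left.

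The arrays were not alike within a group. The mean log2 intensity of the 33 genes was 7.22, 7.24 and 6.76 on AML 1, 2 and 3, against 6.09, 5.84 and 5.86 on CML 1, 2 and 3. AML 3 was the lowest of the AML arrays for 26 of the 33 genes, and without it the median change was 1.13. Among the CML arrays no single one was lowest throughout: CML 2 was lowest for 15 genes, CML 3 for 10 and CML 1 for 8.

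Markers of blood cells were set beside the lysosomal genes. Of all genes 38.3% were higher in AML by value, 61.7% were lower, and 1.83% rose past the threshold. The mean over 8 pan-haematopoietic genes was 8.32 to 9.09 on the AML arrays, against 6.23 to 7.89 on the CML arrays, all 8 genes were higher in AML by value, and Vav1 and Ptpn6 rose. All 8 genes of granulocytes and their precursors were also higher by value, of which Elane, Mpo, Prtn3 and Ctsg rose, with list means of 10.4 to 11.2 in AML and 8.49 to 9.36 in CML. Monocyte and macrophage genes went both ways. Ly86 and Ccr2 rose, and Adgre1, Csf1r and Lyz2 were higher by value at 1.84, 1.77 and 0.73. C1qa, C1qb, C1qc, Fcgr1 and Mertk were lower by value, between -0.75 and -0.21. Of the 10 genes, 3 were higher without overlap and 2, Fcgr1 and C1qa, lower without overlap, against 2957 and 3975 of all 22180 genes. The list means were 5.96 to 6.66 in AML and 5.45 to 5.76 in CML. Of 7 osteoclast genes, 6 were lower in AML by value, with list means of 4.34 to 4.79 in AML and 4.60 to 4.93 in CML, and Oscar, Calcr and Dcstamp lay below the array medians on all 6 arrays.

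Of 8 listed osteoblast markers, 7 were measured and all were lower in AML by value, as were 61.7% of all genes. In limma 0 of the 7 passed the threshold and 0 had an unadjusted p under 0.05. Their list mean was 6.77, 7.91 and 6.24 on AML 1, 2 and 3, against 7.89, 6.89 and 9.60 on CML 1, 2 and 3, so the groups overlapped and CML 3 stood apart. Col1a1 and Col1a2 were above the array medians on every array, while Bglap lay below the median on 1 array and Dmp1 on 2. The part of these cell markers in the lysosomal result was not tested.

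**Figure D4:**
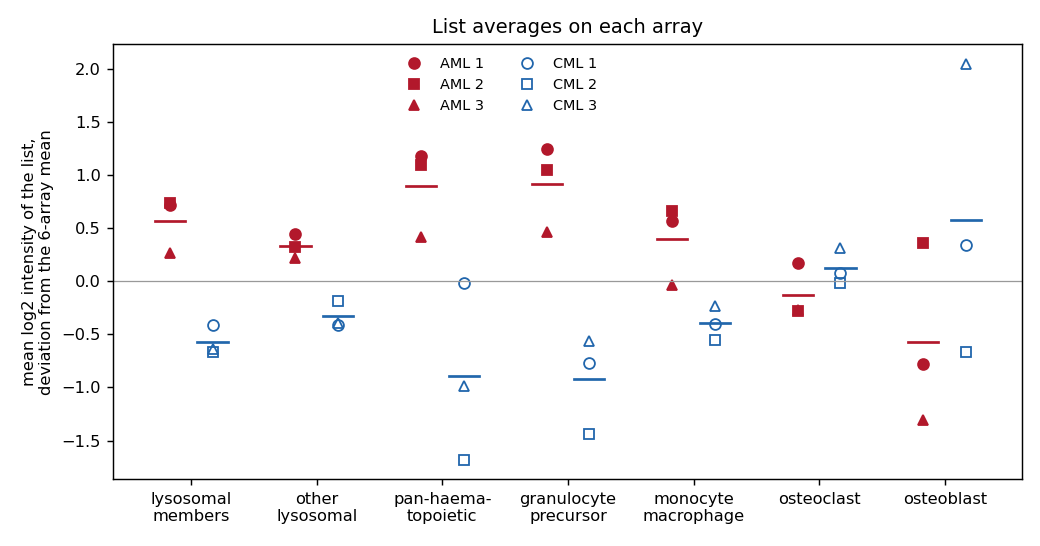
Mean log2 intensity of each gene list on each array, as a deviation from the mean of the 6 arrays, with AML arrays as filled red and CML arrays as open blue symbols and a line at each group's mean. The 33 lysosomal genes lie between 0.26 and 0.74 on the AML arrays, against -0.66 to -0.41 on the CML arrays. Pan-haematopoietic genes are likewise higher on the AML arrays, and osteoblast genes overlap between the groups.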

How the data were processed

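Each sample's RNA went onto its own Affymetrix whole-transcript array, as the labels' protocols state. Per the submitters' processing notes, limma and lumi were used, without version or step, and the background correction, summary and normalization are steps not given in the sources used here. What the authors deposited is intensity on a linear scale, as judged from the values, with array medians of 17.2 to 20.4 for 39721 probe sets. No read depth applies, and the number of arrays limits the precision. Of the probe sets, 23521 had 1 symbol in the platform annotation, 1814 several and 14386 none. RefSeq's table of GRCm38.p6 held 23328 of the 23521 and changed 0 symbols.

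Log2 of the deposited intensity (floor 1, reached by 0 values) was fitted over 22180 genes by lmFit and eBayes of limma 3.58.1 (R 4.3.3), two-sided, AML minus CML, with Benjamini-Hochberg adjustment over all genes and a threshold of 0.05. Standard errors and 95% intervals are the moderated ones. The 34 genes, the lists, the tests and the alternatives were chosen with earlier results of these data known, and support nothing on their own. By rule, array values are given for genes past the threshold and for the 2 lowest p of each role, the other genes are given by change, and from other lists the genes past the threshold or, with none, the 2 lowest p are named. Array values of Gm2a, Man2b1 and Tfec, and M6pr, Igf2r, Tfe3 and Mitf, were added after their values were seen. The other lists held 65 measured genes, and 7 listed genes were not analysed here. Of the marker lists, endothelial, T lineage, B lineage and erythroid genes were lower in AML by value, with median changes of -0.36, -0.27, -1.19 and -1.22, and 4 listed markers were not analysed here. Of the steps, only the limma fit was tested on simulated data. Python 3.11.15 and matplotlib 3.10.9 drew the figures.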

Additional observations from a re-analysis of the deposited data

How the results depend on the processing

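All 33 lysosomal genes were higher in AML by value under the 3 other scalings, with array weights and with averaged probe sets. With 1 array left out, 31 to 33 were. The replicate block, the other variance options and the limit to the upper 50% of genes, which kept 31, leave each gene's change as fitted. Median centring raised every change by the same amount. In these settings a higher gene could not turn lower, so they say nothing on direction. Averaging can alter only genes with more than 1 probe set. With 1 array left out, Gaa ran from -0.14 (without CML 3) to 0.66, Ppt1 from -0.0195 (without CML 3) to 0.69, and Tfeb from -0.0636 (without CML 1) to 0.16. The median change ran from 0.79 to 1.13 with 1 array left out. Median centring moved the median of all genes from -0.11 to 0.04, and relative to it the list's median was 0.997 as fitted and after centring, 0.77 after quantile normalization and 0.73 after cyclic loess. The count of 8 genes past the threshold became 2 after quantile normalization, 1 after cyclic loess, 14 after median centring and 13 among the upper 50% of genes, where all genes gave 93, 64, 896 and 562; with 1 array left out it ran from 0 to 8. The 6 other lysosomal genes past the threshold became 1, 1 and 12 under the 3 scalings, and 0 to 6 with 1 array left out. With the replicate number as a replicate block, limma called 0 of the 33 genes, 0 of the 65 and 0 of 22180, with 24, 26 and 3711 at an unadjusted p under 0.05. The deviations of same-numbered arrays correlated positively for replicate 1 and negatively for replicates 2 and 3 (r = 0.24, -0.30 and -0.25), so the numbers were not taken to pair the samples. Over single genes and settings, 414 values stayed on their side of the threshold, 53 lost and 26 gained a call, and 3 changed sign. The cause of these changes was not tested. Arsa and Tfeb lay below the median of all probe sets on every array, and no detection p-value was used.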

Other observations

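Genes of autophagy, the route that delivers cytoplasm to the lysosome, were looked at from a list of 27 written after the lysosomal values had been seen. Of 26 measured, Atg5 and Atg10 rose, both of which take part in joining ATG12 to ATG5, and 0 fell, which is 7.69%, against 1.91% of all genes called in either direction. Atg5 read 5.76, 5.63 and 6.13 on the AML arrays, against 4.63, 4.87 and 4.73 on the CML arrays (change 1.10 ± 0.18, SE, limma adjusted p = 0.0412). Atg10 changed by 1.33 ± 0.21 (SE, limma adjusted p = 0.0402), but its 3 CML values were dim, below their array's median of all probe sets. Without AML 1, AML 2 or CML 3, limma called 0 of 22180 genes, Atg5 and Atg10 included. The groups of Atg5 did not overlap. By value 15 of the 26 were higher and 11 lower, against 38.3% of all genes higher, with a median of 0.14. Genes of the membrane-bound LC3 and GABARAP proteins and of a receptor, chosen after their values were seen, did not pass, with Map1lc3a at 0.00, Map1lc3b at 0.03, Gabarap at 0.25, Gabarapl2 at -0.31 and Gabarapl1 at -0.67, and the autophagy receptor gene Sqstm1 at -0.09. Their 95% intervals all held 0. The largest rises by value in the list were those of Atg3, at 1.75, and Uvrag, at 1.59. Both lacked overlap and did not pass (limma adjusted p = 0.0623 and 0.114). The largest fall by value was that of Ulk1, at -0.82. The AML arrays lay above all CML arrays for 8 of the 26 genes, against 13.3% of all genes.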
